A study of Mus musculus with 4 samples.

Results

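Open chromatin was examined at Nr3c1, the gene of the glucocorticoid receptor, and at 8 genes known as its targets, Fkbp5, Tsc22d3, Ddit4, Zbtb16, Mt1, Mt2, Cebpb and Cebpd. Members were the ATAC-seq peaks that the deposited annotation assigned to any of these 9 genes, the gene with the nearest transcription start site (TSS). They numbered 221 of 120839 peaks in 4 muscle lists, which joined into 82 of 53883 regions when overlapping peaks were merged. Peaks were taken by gene name and not by score, but the genes were chosen with earlier results of these data known.

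The glucocorticoid receptor is a nuclear receptor held in the cytoplasm by chaperones until it binds cortisol or corticosterone. It then enters the nucleus and binds as a dimer to the glucocorticoid response element (GRE), an inverted repeat of a short site with a spacer of 3 bases, often far from the gene it controls. In skeletal muscle the hormone is known for promoting protein breakdown and for inducing the genes studied here, which encode a chaperone partner of the receptor (Fkbp5), a leucine zipper protein (Tsc22d3, also called GILZ), an inhibitor of mTORC1 signalling (Ddit4), a zinc finger repressor (Zbtb16), metal-binding metallothioneins (Mt1 and Mt2) and transcription factors of the C/EBP family (Cebpb and Cebpd).

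ATAC-seq, in which the transposase Tn5 cuts accessible DNA, was performed on frozen muscle of sedentary wild type C57BL/6 mice. Among the muscles, the soleus (Sol) is slow and oxidative, the quadriceps (Quad) and the extensor digitorum longus (EDL) are largely fast, and the diaphragm (Dia) is a breathing muscle. Each has 1 peak list here, from a library labelled as pooled, and the labels do not say how many animals or libraries a list combines. There are thus no replicates to compare, and every difference between muscles describes these lists, without a test. Age and sex are not given in the labels, and the methods of the study describe its purchased mice as male.

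Quad had the longest list, with 40337 peaks, followed by EDL with 30136, Sol with 28784 and Dia with 21582, and the inferred depths lay between 78.1 and 104.6 M tags (M, mega), lowest in Quad. Of 9 genes of muscle fibres, 4 had a peak in every list (Ckm, Acta1, Mb and Des). The other 5 did not: Myh1 and Tnnt1 had a peak in Quad alone, the slow myosin gene Myh7 in Sol alone, Tnnt3 in Quad and Sol, and Myh4 in all but Dia. Of other cell types, 6 endothelial genes held 21 to 34 peaks per list, 6 fibroblast genes held 15, 19, 10 and 5 in EDL, Quad, Sol and Dia, and 6 leukocyte genes held 3, 5, 1 and 0. For 5 adipocyte genes the numbers were 5, 4, 2 and 5, and for 4 satellite cell genes 5, 10, 8 and 3. In such bulk tissue, fewer cells of a type and less signal per cell cannot be told apart.

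The receptor motif was searched as GNACANNNTGTNC, which reads alike on both strands, and lay within 7 of the 82 regions, at 5 of the 9 genes. For each of these regions the peak with the motif that stood at the highest score percentile of its own list is shown. In these places a match to the motif and open chromatin coincided, and receptor binding was not measured. Sequences are RefSeq GRCm38.p6, the assembly behind mm10, on the plus strand from 5′ to 3′, with the motif in capitals. The Mt1 stretch was ended before the annotated exon. A further sequence comes from Fkbp5 intron 5, which the annotation gave to Tulp1 and which is therefore no member.
Ddit4, upstream, Quad peak at chr10:59974272-59974460: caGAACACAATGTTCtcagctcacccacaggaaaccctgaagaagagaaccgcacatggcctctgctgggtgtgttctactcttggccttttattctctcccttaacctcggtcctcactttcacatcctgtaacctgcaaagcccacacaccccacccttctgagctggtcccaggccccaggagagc
Tsc22d3, downstream, Quad peak at chrX:140513429-140513617: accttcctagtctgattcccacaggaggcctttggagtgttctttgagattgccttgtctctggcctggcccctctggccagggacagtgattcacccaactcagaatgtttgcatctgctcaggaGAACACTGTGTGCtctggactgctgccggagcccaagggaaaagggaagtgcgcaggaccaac
Tsc22d3, farther downstream, Sol peak at chrX:140505811-140506017: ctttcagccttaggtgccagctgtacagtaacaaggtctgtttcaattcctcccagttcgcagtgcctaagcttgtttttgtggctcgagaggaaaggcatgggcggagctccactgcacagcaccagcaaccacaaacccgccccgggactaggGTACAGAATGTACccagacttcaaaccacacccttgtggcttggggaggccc
Zbtb16, intron 3, EDL peak at chr9:48723687-48723895: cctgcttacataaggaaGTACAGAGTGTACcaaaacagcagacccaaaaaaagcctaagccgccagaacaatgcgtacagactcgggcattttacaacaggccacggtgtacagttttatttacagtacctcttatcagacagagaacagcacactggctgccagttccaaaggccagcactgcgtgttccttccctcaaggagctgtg
Zbtb16, intron 2, EDL peak at chr9:48775665-48775873: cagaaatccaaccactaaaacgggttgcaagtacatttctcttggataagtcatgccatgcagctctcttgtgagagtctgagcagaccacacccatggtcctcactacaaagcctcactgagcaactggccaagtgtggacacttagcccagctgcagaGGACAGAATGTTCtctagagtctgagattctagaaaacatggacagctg
Mt1, promoter, EDL peak at chr8:94178887-94179081: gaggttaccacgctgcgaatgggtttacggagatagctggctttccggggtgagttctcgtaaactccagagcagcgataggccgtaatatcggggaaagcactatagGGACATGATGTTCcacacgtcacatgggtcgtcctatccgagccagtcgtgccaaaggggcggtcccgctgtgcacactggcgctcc
Mt2, upstream, Quad peak at chr8:94171391-94171579: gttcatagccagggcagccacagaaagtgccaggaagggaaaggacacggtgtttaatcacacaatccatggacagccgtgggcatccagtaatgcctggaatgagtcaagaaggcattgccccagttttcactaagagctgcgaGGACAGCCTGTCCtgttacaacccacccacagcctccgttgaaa
Fkbp5, intron 5, Quad peak at chr17:28420227-28420415: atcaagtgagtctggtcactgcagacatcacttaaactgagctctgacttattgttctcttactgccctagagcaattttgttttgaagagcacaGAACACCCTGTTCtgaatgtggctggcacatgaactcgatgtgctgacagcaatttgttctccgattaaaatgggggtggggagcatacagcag

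Motif matches were more frequent in peaks of the 9 genes than in the lists as a whole. In EDL 7 of 64 peaks held the motif (10.9%, 95% Wilson interval 5.40% to 20.9%), against 1.16% of all peaks of that list at the same width. In Sol it was 5 of 51 peaks (9.80%, 4.26% to 21.0%) against 1.01%, and in Dia 4 of 37 (10.8%, 4.29% to 24.7%) against 0.853%. Quad had 3 of 69 (4.35%, 1.49% to 12.02%) against 1.01%. All Wilson and Poisson intervals given here cover counting error only, and peaks of different lists share regions. Because the genes were picked as known receptor targets, their motif count is no independent evidence that the receptor acts on them.

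Counted by region, 7 of 82 held the motif (8.54%, 4.20% to 16.6%), compared with 1.22% of 53857 regions on assembled chromosomes. Of the 25 regions listed in all 4 muscles 5 held it, compared with 1.24% of 14485. The window searched changed the Quad count most. Within 500 bp around each peak centre the motif lay in 8 Quad peaks (11.6%), 9 EDL peaks, 7 Sol peaks and 6 Dia peaks, against 1.83% of all Quad peaks, 1.90% of EDL, 1.69% of Sol and 1.54% of Dia peaks. No peak named for Nr3c1, Fkbp5, Cebpb or Cebpd held a match. That says only that these letters were not in these windows.

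**Figure D1:**
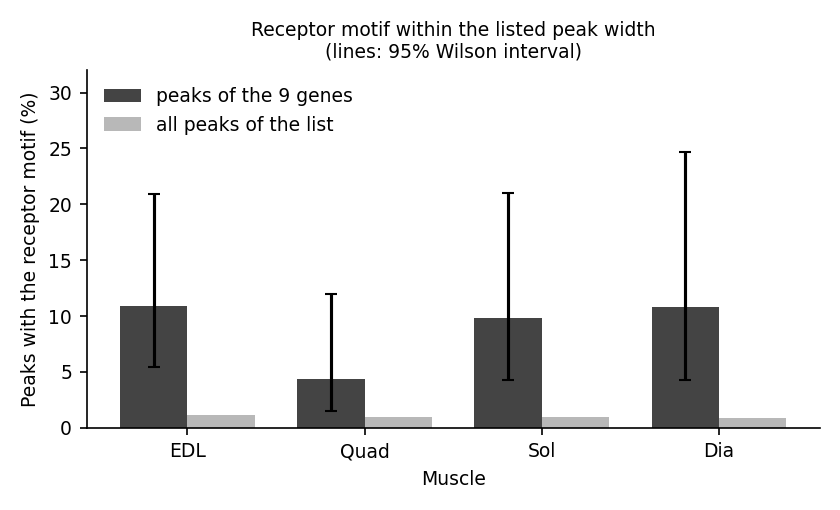
Share of peaks with the receptor motif (%, y axis) in each muscle (x axis), for peaks assigned to the 9 genes (dark bars, lines are 95% Wilson intervals) and for all peaks of the list (light bars). The dark bars stand at 10.9%, 4.35%, 9.80% and 10.8% and the light bars between 0.853% and 1.16%.

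For other factors the shares of members and of whole lists lay closer together, or the members were lower. The metal response element (TGCACNC or TGCGCNC, both strands), which the metal sensor MTF1 binds, lay in 14.1% of the EDL member peaks against 18.4% of all EDL peaks, in 10.1% against 16.3% in Quad, 15.7% against 18.9% in Sol and 8.11% against 23.3% in Dia. Promoter peaks were rarer among the members than in the lists. Over non-promoter peaks the share was 13.4%, 12.3%, 13.8% and 16.5% in EDL, Quad, Sol and Dia. The EDL and Sol members lay above these shares and the Quad and Dia members below. The C/EBP palindrome (TTGCNNAA) lay in 3 of 64, 4 of 69, 4 of 51 and 5 of 37 member peaks in EDL, Quad, Sol and Dia, against 7.95%, 7.28%, 7.62% and 9.12% of all peaks. The cAMP response element (TGACGTCA) lay in 1 member peak of Quad and 1 of Sol, both in Zbtb16 intron 2, about 9 kb into the gene, and in none of EDL or Dia. Over all peaks of a list its share lay between 1.14% in Quad and 1.89% in Dia.

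The 9 genes together held 64, 69, 51 and 37 peaks in EDL, Quad, Sol and Dia. Relative to list length this was 21.2 per 10000 peaks in EDL (95% Wilson interval 16.6 to 27.1), 17.1 in Quad (13.5 to 21.6), 17.7 in Sol (13.5 to 23.3) and 17.1 in Dia (12.4 to 23.6). The totals stood in the order of the list lengths, and the intervals of the shares overlapped.

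By nearest-TSS naming Nr3c1 had the most peaks in EDL, Quad and Sol, with 16, 17 and 13, and 8 in Dia. Tsc22d3 followed with 14, 14, 12 and 11 in EDL, Quad, Sol and Dia, the most of any member in Dia. Zbtb16 had 12, 12, 10 and 7, Ddit4 9, 9, 5 and 3, and Cebpd 7, 9, 7 and 4. Few peaks were assigned to the others: Fkbp5 had 3, 3, 2 and 2, Mt1 had 1, 3, 1 and 2, Mt2 had 1 in each of EDL, Quad and Sol, and Cebpb had 1 in EDL and 1 in Quad. Thus all 9 genes had a peak in EDL and Quad, 8 in Sol and 7 in Dia.

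Among 17157 genes with a peak in any list, Nr3c1 lay between percentiles 99.7 and 99.9 for peak number, Tsc22d3 between 99.4 and 99.9, and Zbtb16 between 98.8 and 99.6. Ddit4 fell from percentile 98.8 in EDL to 91.3 in Dia. No other gene had the same 4 peak numbers as Nr3c1, Tsc22d3, Ddit4 or Zbtb16. Map4 was the sole gene with those of Cebpd. Fkbp5 shared its numbers with 79 genes, Mt1 with 26, Mt2 with 379 and Cebpb with 331. All these ranks rest on nearest-TSS naming. Within 50 kb of the gene body, under any gene name, Nr3c1 had 6, 8, 6 and 2 peaks in EDL, Quad, Sol and Dia. By that count Zbtb16 had the most of the 9 genes, with 20, 24, 15 and 12. Tsc22d3 had 15, 14, 12 and 11, and Fkbp5 11, 13, 8 and 7.

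**Figure D2:**
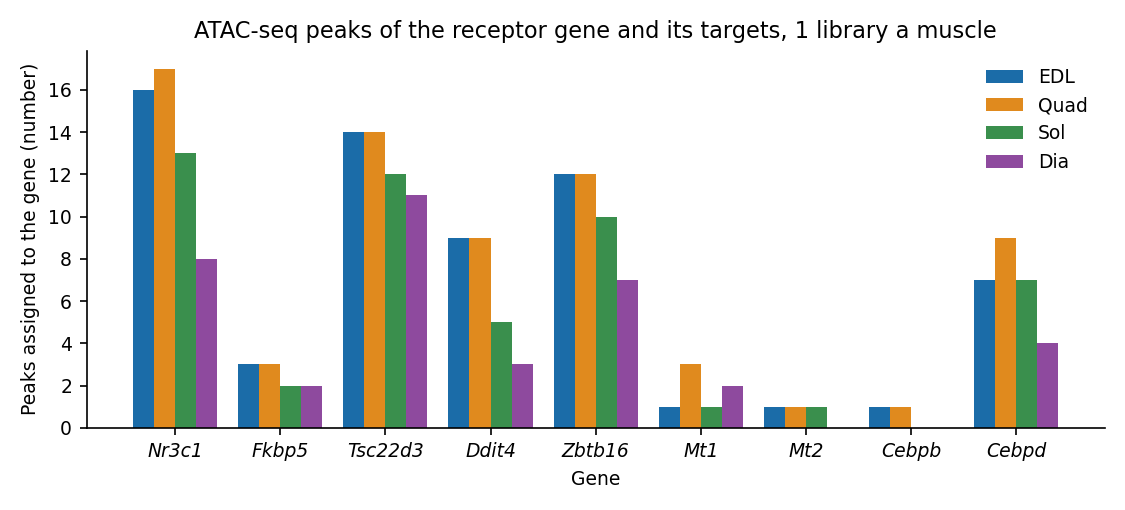
Number of peaks assigned to each gene (y axis) for the 9 genes (x axis) in EDL, Quad, Sol and Dia, 1 library each (bar colours). Nr3c1 reaches 17 in Quad, and Mt2 and Cebpb never pass 1.

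Most peaks of the 9 genes lay away from promoters, which the annotation took to run from 1 kb before a TSS to 100 bp past it. Promoter peaks made up 10.9% of the members in EDL (95% Wilson interval 5.40% to 20.9%), 11.6% in Quad (5.99% to 21.2%), 11.8% in Sol (5.51% to 23.4%) and 18.9% in Dia (9.48% to 34.2%). Over the whole lists these shares were 30.7%, 25.5%, 31.9% and 41.3%, above each interval. Within genes lay 32 of 64 members in EDL, 33 of 69 in Quad, 23 of 51 in Sol and 16 of 37 in Dia. The median distance from the TSS was 34264 bp, 33044 bp, 29139 bp and 29204 bp in EDL, Quad, Sol and Dia for the members, compared with medians over all peaks from 3754 bp in Dia to 13561 bp in Quad. Genes with many peaks weigh most in these values.

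The number of the 9 genes with a promoter peak was 6 in every muscle, Fkbp5, Tsc22d3, Ddit4, Zbtb16, Mt1 and Cebpd each time. Of 21887 protein-coding genes, 37.7%, 41.3%, 37.6% and 37.0% had a promoter peak in EDL, Quad, Sol and Dia. Promoter peaks of the members had median score percentiles, ranks within their own list, of 84.0, 88.9, 86.9 and 81.6, compared with 76.26, 81.3, 75.7 and 74.1 for all promoter peaks of the EDL, Quad, Sol and Dia lists. Non-promoter members also ranked above their class. Intergenic members had medians of 55.2, 59.0, 46.4 and 43.5, against 35.7, 36.4, 34.6 and 31.1 for all intergenic peaks. Intragenic members had medians of 55.7, 59.0, 62.5 and 44.1, against 40.9, 41.8, 40.5 and 35.4.

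**Figure D3:**
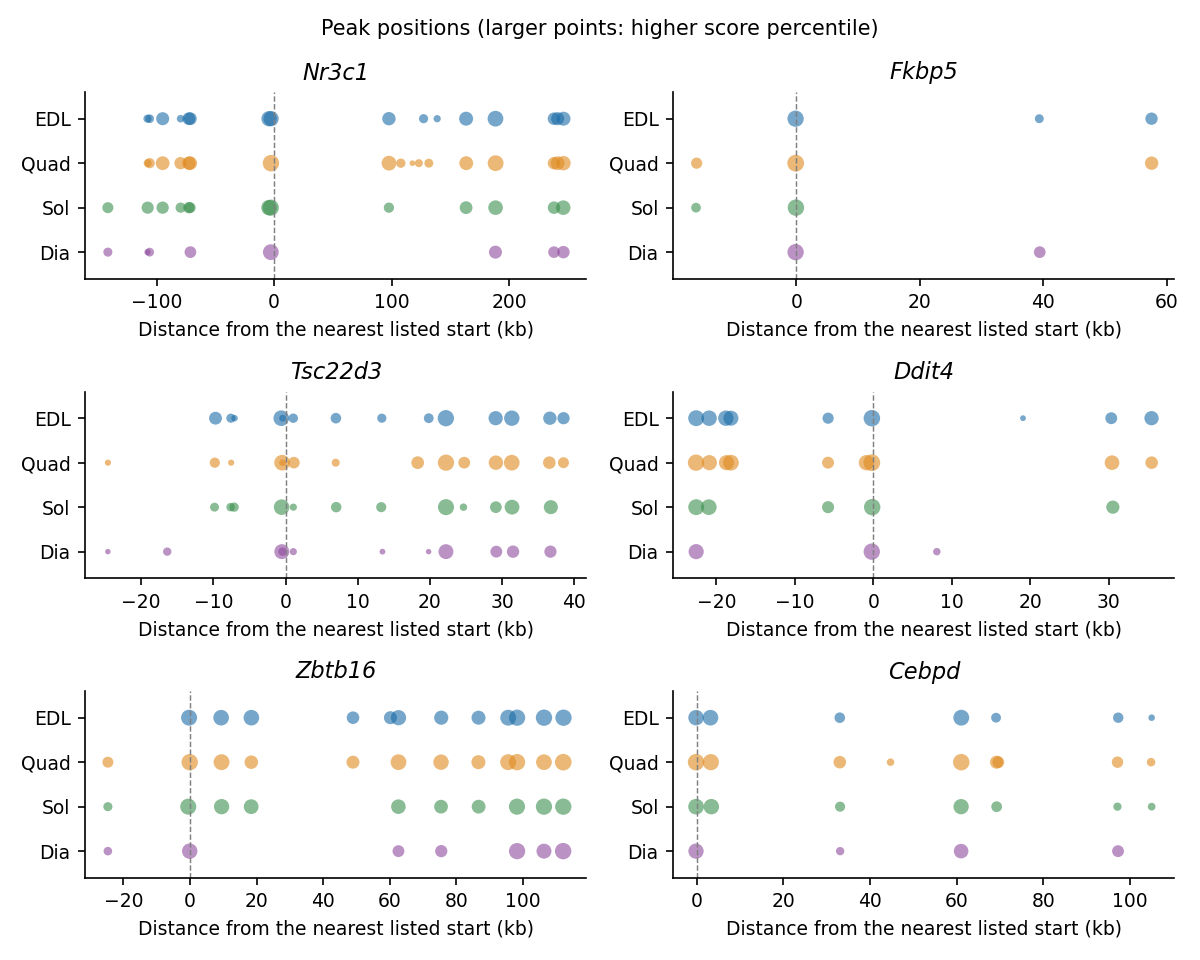
Distance of each peak from its nearest listed TSS (kb, x axis) in the 4 muscles (rows) for the 6 genes with peaks at several distances. Point size rises with the score percentile and the dashed line marks the TSS. Tsc22d3 distances refer to whichever of its starts is nearest. Nr3c1 peaks reach from -141430 bp to 246176 bp, and the peaks of Zbtb16 lie mostly inside the gene.

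The receptor gene itself lies on the minus strand of chromosome 18, between 39410545 and 39519421 in GENCODE vM21 (mm10), and spans 109 kb. Its 54 peaks formed 21 regions, 6 of them in all 4 lists and 6 in a single list. None was annotated as a promoter peak. The highest-scored region lay -2579 bp to -2797 bp from the TSS that the annotation used. Its score was 11.3, 18.7, 15.3 and 14.3 in EDL, Quad, Sol and Dia, at percentiles 78.8, 94.0, 89.9 and 85.6. Quad was the highest and EDL the lowest. It was called intergenic. In GENCODE, which holds further Nr3c1 transcripts, the same peaks lay within 154 bp of the start of an Nr3c1 transcript, -154 bp in Sol, -153 bp in Dia, -83 bp in Quad and 22 bp in EDL. The GC content of the 4 peaks was 75.1% to 81.6%, against list medians of 54.0% to 56.7%. A neighbouring region at -4377 bp in EDL and -4384 bp in Sol ranked at percentiles 79.4 and 82.0 and lay at -321 bp and -328 bp from another GENCODE start.

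Farther from Nr3c1, 22 of its 54 peaks lay inside introns of Arhgap26, the next gene. Of these, the region 188281 bp to 188408 bp from the TSS was listed in all 4 muscles, with percentiles of 85.3, 86.2, 72.1 and 55.1 in EDL, Quad, Sol and Dia. The other Arhgap26 regions in all 4 lists, 238010 bp and 245929 bp away or slightly more, ranked between percentiles 41.7 and 71.6. Upstream, the region at -71435 bp to -71210 bp lay between percentiles 35.8 in Sol and 63.0 in Quad. The one at -107746 bp to -107546 bp had its highest rank in Sol, at percentile 46.9, with 15.4 in EDL, 14.95 in Quad and 4.66 in Dia, the widest range of the 25 regions that all lists held. All 6 regions of Nr3c1 found in 1 muscle ranked at or below percentile 23.4, 4 in Quad and 2 in EDL. No expression data bear on which gene these distant peaks serve.

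Fkbp5 encodes FKBP51, which binds the receptor's chaperone complex and lowers its affinity for hormone. The gene spans 118 kb on the minus strand of chromosome 17, from 28399094 to 28517527. Its promoter peak was among the strongest of all member peaks, with scores of 16.8 in EDL (95% Poisson interval 14.4 to 19.5), 25.2 in Quad (21.8 to 29.0), 18.3 in Sol (15.8 to 21.0) and 18.0 in Dia (15.5 to 20.9), at percentiles 92.1, 97.8, 93.9 and 92.5. Quad was the highest and its interval overlapped none of the others. Its other members were weaker. An intron 4 peak was listed in EDL and Quad (percentiles 48.7 and 59.0), an intron 1 peak in EDL and Dia (20.5 and 42.9), and an upstream peak in Quad and Sol (38.2 and 26.2).

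Nearest-TSS naming kept other peaks of the Fkbp5 body out of the count. Within the gene body lay 6, 8, 5 and 5 peaks in EDL, Quad, Sol and Dia, of which 3, 5, 3 and 3 carried another gene's name. Intron 5 held peaks named Tulp1, at percentiles 71.8, 79.9, 69.9 and 50.6 in EDL, Quad, Sol and Dia. Those of EDL, Quad and Sol held the motif shown above, GAACACCCTGTTC, which starts at 28420322. The Dia peak of that intron was centred farther away and held none. Peaks named Armc12 lay near the 5′ end of the GENCODE gene body at percentiles 89.7, 91.3, 87.1 and 75.1 in EDL, Quad, Sol and Dia.

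Tsc22d3, whose product GILZ binds NF-kB and AP-1 and carries part of the anti-inflammatory action of glucocorticoids, lies on the minus strand of the X chromosome from 140539528 to 140600659. Its 51 peaks formed 18 regions, 6 in all 4 lists. The promoter of the short transcripts was open in all muscles, with percentiles of 84.0, 84.4, 83.1 and 76.4 in EDL, Quad, Sol and Dia, the most even of the 6 Tsc22d3 regions in all lists. The upstream promoter of the longest transcript ranked low, at percentiles 8.30 in EDL, 7.89 in Quad and 18.4 in Dia, with no peak listed in Sol. A region in intron 1, 1067 bp to 1152 bp from the listed TSS, was in all 4 lists, at percentiles of 24.0, 41.8, 9.81 and 9.72, highest in Quad.

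Downstream of Tsc22d3, beyond its last exon, lay a chain of intergenic regions, of which 4 were listed in all muscles. The rest of the chain was listed in some muscles only. The highest-scored lay 22206 bp to 22226 bp from the TSS, at percentiles 91.9, 91.8, 88.8 and 75.5 in EDL, Quad, Sol and Dia. Both motif-bearing regions of the gene lay farther on. The region 29110 bp to 29204 bp away, with the match GAACACTGTGTGC in all 4 peaks, ranked at percentiles 67.8, 69.8, 42.7 and 44.1 in EDL, Quad, Sol and Dia. The region 36544 bp to 36754 bp away, with the match GTACAGAATGTAC, ranked at 58.7, 50.8, 66.0 and 47.6, highest in Sol. Its Quad peak did not reach the match. Between them, the region near 31 kb ranked at 81.1, 84.7, 74.2 and 48.7. Dia was lowest in 3 of these 4 regions, and Sol in the one with the first match.

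Ddit4, which encodes REDD1, an inhibitor of mTORC1 and so of protein synthesis, is a short gene of 2.17 kb on the minus strand of chromosome 10, from 59949669 to 59951834. Its promoter peak ranked at percentiles 94.8, 97.3, 93.7 and 92.8 in EDL, Quad, Sol and Dia, with scores of 19.5, 23.9, 18.1 and 18.2. The highest-scored distal region lay at -22571 bp to -22596 bp. It carried the match GAACACAATGTTC in every list, with scores of 14.0 in EDL (11.9 to 16.5), 17.2 in Quad (14.4 to 20.3), 14.0 in Sol (11.8 to 16.4) and 12 in Dia (9.93 to 14.3). These were percentiles 87.2, 92.4, 87.1 and 78.4. Of the intervals, Quad and Dia just failed to overlap.

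The stretch next to that region was listed unevenly. A peak at about 21 kb upstream was listed in EDL, Quad and Sol (percentiles 82.1, 79.4 and 84.3) and not in Dia, and peaks about 18.7 and 18.1 kb upstream were listed in EDL (81.4 and 76.7) and Quad (77.9 and 85.6) alone. A peak in the promoter span at -865 bp was listed in Quad alone, at percentile 80.8. The nearest peaks of the other lists were 470 to 538 bp away. Altogether 2 of the 11 Ddit4 regions were in all 4 lists, both named here.

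Zbtb16, which encodes the zinc finger repressor PLZF and is strongly induced by glucocorticoids in many cells, spans 182 kb on the minus strand of chromosome 9, from 48654297 to 48836222. Its 41 peaks formed 14 regions, 5 in all 4 lists, and 34 of the peaks lay within the gene. The promoter was open in all muscles but through peaks that did not all overlap. Quad and Dia peaks lay at -98 bp and -91 bp, the EDL peak at -284 bp and the Sol peak at -529 bp, with percentiles of 93.4, 81.6, 88.0 and 89.2. The Sol peak began 38 bp past the end of the EDL peak and was therefore counted as a region of Sol alone.

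Intron 3 of Zbtb16 held its strongest distal peaks. The region about 112 kb into the gene ranked at percentiles 92.3, 96.4, 92.2 and 93.3 in EDL, Quad, Sol and Dia, with scores of 17.0, 22.2, 16.8 and 18.6, above its promoter peak in each list. The EDL peak there held GTACAGAGTGTAC, which the other 3 peaks did not reach. The region 98177 bp to 98214 bp from the TSS was the most even of the 25, from 89.9 in Sol to 92.6 in Quad. That at 106273 bp to 106288 bp ranged from 76.0 in Dia to 92.5 in EDL. Regions at about 63 and 75 kb were listed in all muscles at 79.4, 85.3, 71.6 and 44.1 and at 67.1, 81.3, 62.5 and 47.6 in EDL, Quad, Sol and Dia, Dia the lowest in both.

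Several intronic regions of Zbtb16 had no Dia peak. The peaks about 9.4 and 18.4 kb into the gene were listed in EDL (percentiles 84.0 and 83.7), Quad (87.4 and 60.1) and Sol (79.9 and 73.7), with the nearest Dia peak 9211 bp away or more. A peak at 60176 bp in intron 2, with the match GGACAGAATGTTC, was listed in EDL alone at percentile 55.2.

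The metallothionein genes Mt1 and Mt2, which bind zinc and copper and respond to both metals and glucocorticoids, lie side by side on the plus strand of chromosome 8, from 94179082 to 94180327 and from 94172664 to 94173568. The Mt1 promoter was open in all 4 muscles, with scores of 12.7 in EDL (10.6 to 15.1), 12 in Quad (9.73 to 14.7), 10.7 in Sol (8.81 to 12.9) and 13.1 in Dia (10.9 to 15.5), whose intervals all overlapped. By score Dia was highest and by percentile EDL, 84.0 against 82.3 in Dia, 82.5 in Quad and 75.7 in Sol. The match GGACATGATGTTC lay in the EDL, Sol and Dia peaks. The Quad peak was centred at 33 bp, past the match, and held 5 metal response elements, against 1 in EDL and 3 in each of Sol and Dia.

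A peak 4277 bp from the Mt1 TSS was listed in Quad alone at percentile 59.0 and held 6 metal response elements. A peak at 7785 bp was listed in Quad (59.0) and Dia (56.0). Mt2 had no promoter peak in the annotation. Its 1 region, just outside the promoter span at -1036 bp to -1133 bp, was listed in EDL, Quad and Sol at percentiles 37.0, 70.5 and 49.0, and the nearest Dia peak lay 7215 bp away. All 3 of its peaks held the match GGACAGCCTGTCC. This region lies in Gm45774, an antisense transcript in GENCODE.

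The C/EBP genes differed in how much open chromatin surrounded them. Cebpb, on the plus strand of chromosome 2 from 167688915 to 167690418, had 1 peak in its only exon, with scores of 12.2 in EDL (10.2 to 14.5) and 12.4 in Quad (10.1 to 15.2) at percentiles 82.4 and 83.6. No peak was called there in Sol or Dia, whose nearest peaks were 7106 and 8788 bp away. These were the 2 lists with fewest peaks, and with the fewest peaks at leukocyte and fibroblast genes given above. At endothelial, adipocyte and satellite cell genes they were not the lowest 2. The part of cell makeup in the missing peaks was not tested.

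Cebpd lies on the plus strand of chromosome 16 from 15887286 to 15891031. Its promoter peak was listed in all 4 muscles with scores of 12.2, 20, 13.0 and 12.4 in EDL, Quad, Sol and Dia (percentiles 82.4, 95.03, 84.5 and 79.8). A region at the 3′ end of the gene was listed in EDL, Quad and Sol at 84.3, 91.0 and 81.6. The other 7 of its 9 regions lay in introns of the neighbouring gene Spidr, up to 105052 bp away. The highest-scored of these, about 61 kb away, was listed in all muscles, with scores of 13.8, 19.5, 11.7 and 10.6 and percentiles of 86.6, 94.6, 79.9 and 71.9 in EDL, Quad, Sol and Dia. The remaining regions in all 4 lists, at about 33 and 97 kb, ranked between 16.1 and 50.8.

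Merging the lists showed how far the muscles shared these regions. In all 4 lists were 25 of the 82 regions (30.5%, 95% Wilson interval 21.6% to 41.1%), against 26.9% of all merged regions, which lies within that interval. Split by class, regions without a promoter peak were in all 4 lists in 20 of 73 cases (27.4%, 18.5% to 38.6%). Over all such regions the share was 16.0%, below that interval. Of regions with a promoter peak 5 of 9 were (55.6%, 26.7% to 81.1%), against 66.1% of all. In 1 list were 16 of 82 (19.5%, 12.4% to 29.4%), against 42.6% of all regions. In 3 lists were 23 of 82 (28.0%, 19.5% to 38.6%), against 13.1%. Of these 23 regions, 18 were missing from Dia alone, 22.0% of the 82 against 8.09% of all regions. Quad had 9 regions that no other list held, EDL 4, Dia 2 and Sol 1.

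Pairs of muscles shared regions to different degrees. EDL and Quad shared 70.5% of the regions in either (59.6% to 79.5%), against 52.8% of all regions. EDL and Sol shared 66.7% (54.9% to 76.6%) against 53.7%, and Quad and Sol 62.2% (50.8% to 72.4%) against 46.0%. Dia shared 44.3% with EDL (33.2% to 55.9%) against 47.6%, 41.3% with Quad (30.9% to 52.6%) against 39.2%, and 46.7% with Sol (34.6% to 59.1%) against 49.4%. Pairs with Dia thus lay near the whole lists at full length. Every list was also shortened to its 20000 highest-scored peaks. Dia then shared 38.6% with EDL against 51.9%, 41.1% with Quad against 50.1% and 43.1% with Sol against 55.2%. Each of these pairs lay below the share of all regions. The Dia list is the shortest. Of its member regions 83.8% were also in EDL and 83.8% in Quad, against 77.3% and 80.7% of all its regions. Of the EDL and Quad member regions 48.4% and 44.9% were in Dia, against 55.4% and 43.2% of all regions of those lists.

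**Figure D4:**
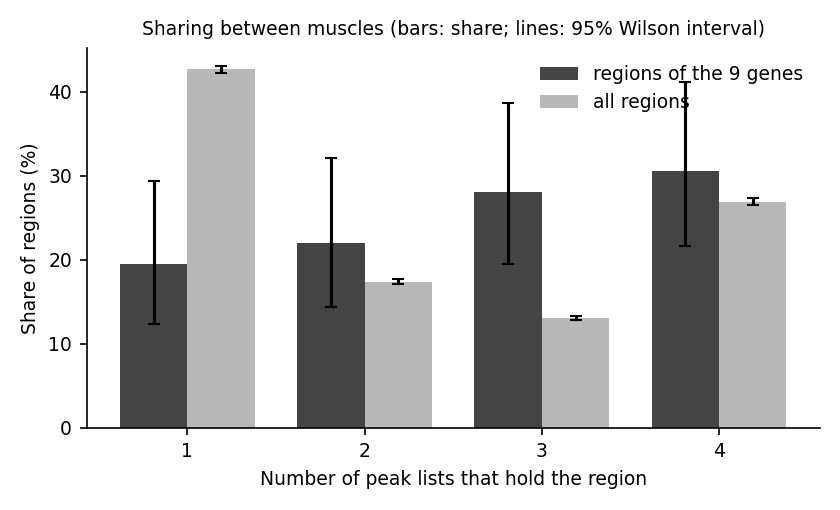
Share of merged regions (%, y axis) held by 1, 2, 3 or 4 peak lists (x axis), for the 82 regions of the 9 genes (dark bars) and all 53883 regions (light bars), lines being 95% Wilson intervals. Regions of the 9 genes were in a single list less (19.5% against 42.6%) and in 3 lists more (28.0% against 13.1%).

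A region absent from a list is only one where no peak was called. Of the 107 cases in which a member region lacked a list, the missing list had a peak within 100 bp in 2 and within 500 bp in 9. Regions in 1 list alone were mostly low in rank. Of 16, 11 lay at or below the median score of their list, and the other 5 were those of Ddit4 at -865 bp, Zbtb16 at -529 bp and 60176 bp, Mt1 at 4277 bp and Tsc22d3 at 18305 bp, the last in Quad at percentile 52.1.

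In the 25 regions common to all muscles the percentile was highest in Quad for 17, in Sol for 4, in EDL for 3 and in Dia for 1. Quad also led in 57.5% of all regions common to the 4 lists, so a lead of Quad is general. Dia was lowest in 17 of 25, against 52.3% of all. The percentile range over the muscles had a median of 18.5 points, against 19.1 over all such regions, and spanned 2.68 to 42.3. The ratio of the highest to the lowest score had a median of 1.43, against 1.39, and was above 2 in 0 of the 25 regions and in 741 of all 14497. Since the highest is set over the lowest, the ratio cannot be under 1. The largest ratio was 1.88 (95% interval 1.37 to 2.59), of Quad over Dia in Zbtb16 about 63 kb into the gene, and the next 1.84 (1.43 to 2.38), again of Quad over Dia, in the Spidr intron assigned to Cebpd.

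**Figure D5:**
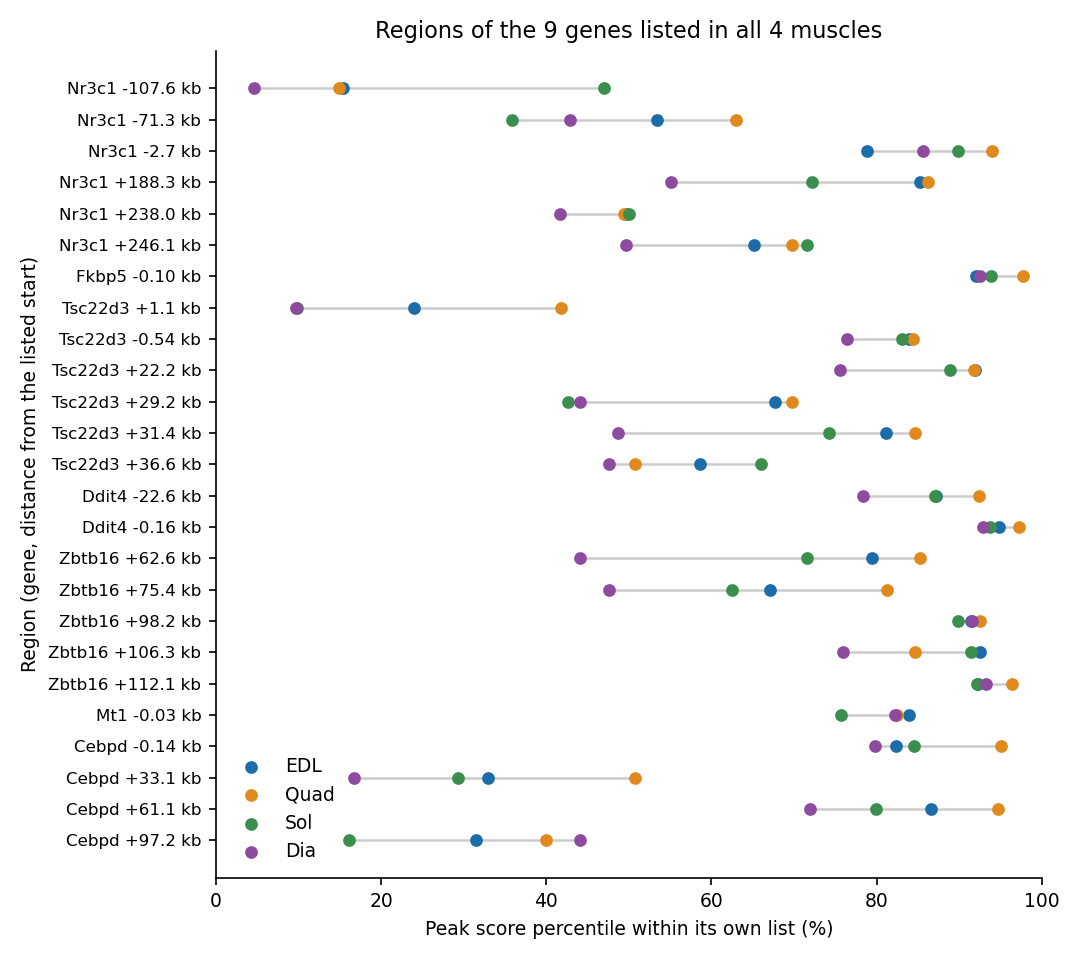
Score percentile within its own list (%, x axis) of the 25 regions listed in all 4 muscles (rows, gene and distance from the TSS), 1 point a muscle. Lines join the lowest and highest muscle. Promoter regions of Fkbp5 and Ddit4 lie above percentile 92 in each list, and ranges run from 2.68 to 42.3 points.

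Open chromatin was also listed at genes that work with the receptor. Of 13 genes of chaperones, hormone activation and coregulators, all had a peak in some list, as did 17157 genes in total. A promoter peak was listed for 10, 13, 11 and 10 of them in EDL, Quad, Sol and Dia. Of protein-coding genes, 37.7%, 41.3%, 37.6% and 37.0% had one in these lists. Nrip1, a corepressor, had 7, 10, 6 and 4 peaks in EDL, Quad, Sol and Dia. Nr3c2, the mineralocorticoid receptor, had 3, 4, 6 and 3. Hsd11b1, which regenerates active hormone, had 2, 3, 4 and 2.

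Of 20 other glucocorticoid target genes all had a peak in some list, as did 17157 genes in total. The 20 genes held 88, 113, 80 and 57 peaks in EDL, Quad, Sol and Dia. A promoter peak was listed for 9, 13, 9 and 9 of them, beside 37.7%, 41.3%, 37.6% and 37.0% of protein-coding genes. Sgk1, a kinase, had 6, 8, 6 and 2 peaks, and Dusp1, a phosphatase of MAP kinases, 6, 8, 3 and 4. Among the ubiquitin ligases of muscle atrophy, Fbxo32 had 3, 5, 3 and 3 and Trim63 had 2, 4, 1 and 1. Pdk4, which restrains glucose oxidation, had 2, 6, 2 and 2. Related family members of the 9 genes, 11 in all, held 25, 32, 25 and 22 peaks. The quadriceps list, the longest, held the most peaks in each of these lists of genes.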

How the data were processed

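ATAC-seq peaks of 4 mouse muscles, 1 deposited list each, were analysed. The authors aligned reads to mm10 with Bowtie2, let HOMER count a start position no more than 1 time, called peaks for every library by itself in the factor mode and annotated each to the nearest TSS. Handling of the Tn5 offset and of mitochondrial reads is not given in the sources used here. In the deposited lists the peak score is a signal, tags scaled to library size by the authors, and the deposited focus ratio, a fraction, was copied and not otherwise used. Peak widths, set by the authors per library, were 233 bp (Dia), 209 bp (EDL), 207 bp (Sol) and 189 bp (Quad), counting both ends, so the chance of a motif match differs between lists. Intergenic, intragenic and promoter classes were theirs.

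Tags were inferred from the steps of the scores, assuming a scale of 10 M tags (M, mega). Scores below 10 were whole multiples of the step for 98.0% to 100% of the peaks, and the lowest peak held 25 to 36 tags. Peaks overlapping by at least 1 bp were merged over the 4 lists. Percentiles are ranks within a list with ties halved. Shares carry 95% Wilson intervals, scores exact Poisson intervals on the inferred tags, and score ratios exact binomial intervals. Functions were tested on simulated data. Motifs were searched in GRCm38.p6 from RefSeq and transcripts taken from GENCODE vM21. All 120769 peaks on assembled chromosomes lay inside their chromosome. With 1 list a muscle, no test was run. The text gives, for each member, the promoter region and the highest-scored other region, regions in all 4 lists and those in 1 list above its median. The members, gene lists and motifs were chosen with earlier results of these data known. Python 3.11.15, pandas 2.3.3, numpy 2.4.6, scipy 1.17.1 and matplotlib 3.10.9 were used.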

Additional observations from a re-analysis of the deposited data

How the results depend on the processing

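Of 80 recomputed values 67 were classed as the same and 13 as moved. Some of those classed as the same still shifted by much. The Quad motif share went from 4.35% to 11.6% in the 500 bp window. With lists of 20000 peaks the members fell from 64 to 46 in EDL and from 69 to 46 in Quad. Taking the upper part of each list by score, above the median, left 40 peaks of the 9 genes in EDL, 28 in Sol and 15 in Dia, and the share of regions in both lists of a pair became 54.5% for EDL and Sol and 48.0% for Quad and Sol, below the 62.3% and 54.6% of all regions, where with the full lists these pairs lay above. Pairs with Dia lay below too, at 34.1% against 55.5% (EDL), 32.6% against 46.7% (Quad) and 43.3% against 58.9% (Sol). The cause was not tested. Within 50 kb of the TSS lay 40 peaks in Quad, 37 in EDL, 30 in Sol and 23 in Dia. Under 50% reciprocal overlap 18.0% of regions were in all 4 lists (19.8% of all regions), and EDL and Quad shared 47.8% (43.3% of all), EDL and Sol 45.6% (45.7%) and Quad and Sol 46.3% (38.4%). Some alternatives were chosen after seeing the data: under GENCODE promoters 7 of the 9 genes had a promoter peak in each muscle, and without Mt1 and Mt2 the receptor motif lay in 8.06%, 3.08%, 6.12% and 8.57% of the peaks in EDL, Quad, Sol and Dia. When each list was shortened to 20000 peaks, 30.8% of the regions of the 9 genes were in all 4 lists against 35.2% of all regions. No paired analysis was possible because each muscle had 1 peak list and no test was run. Inferred depth, from an assumed scale, sets only counting error. Weak regions near the threshold of a list may be missing from it.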
